A study of Mus musculus with 4 samples.

Results

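At 535 places beside protein-coding genes, thymus with the p53 AD/AD genotype carried a PPAR-alpha summit and neither p53 library had a summit within 1 kb. These sites were chosen by position from the 4070 summits of the PPAR-alpha list. A summit, the base of highest pile-up in a called peak, was kept when it lay on chromosomes 1 to 19 and within 1 kb of either end of a protein-coding gene. Summits in a run of 3 or more within 10 kb (144 of 1706 at gene ends) and a further 20 within 1 kb of a transfer RNA gene were dropped. Of the 1542 left, 1007 had a p53 summit within 1 kb and 535 did not. The p53 lists thus chose the sites, and their absence from those lists is a description, not a finding.

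All libraries were made from thymus taken at 4 weeks from mice with the p53 AD/AD genotype. The product of the AD allele is described by the series as dimeric p53. Every library carries it, so no other genotype could be compared. Chromatin immunoprecipitation was done with antibodies to p53 (2 libraries, 50 nt reads) and PPAR-alpha (1 library, 75 nt reads), and an input library is not analysed here. Antibody and read length changed together and their effects cannot be told apart. The labels do not say whether the p53 libraries came from separate mice, nor whether animals were pooled. The lists held 3608, 4767 and 4070 summits for p53 replicate 1, p53 replicate 2 and PPAR-alpha. Scores are the authors' own values per summit, taken to be −log10 significance values, and were used only to describe and rank summits within the PPAR-alpha list. Read numbers are unknown, and with 1 PPAR-alpha library no site has a replicate check. Intervals are exact Clopper-Pearson 95% intervals and cover counting error only.

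PPAR-alpha is a nuclear receptor activated by fatty acids and their derivatives. It binds DNA together with RXR at direct repeats of the hexamer AGGTCA set a single base apart, and it is best known for switching on fatty acid uptake and oxidation in liver, heart and muscle. The thymus consists mainly of developing T cells, whose identity rests on the T cell receptor, its signalling chain and a set of transcription factors. Promoters of broadly used genes are often rich in CpG and hold short elements such as the CCAAT box, bound by NF-Y, the GC box, bound by Sp family factors, and the ETS element.

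The sequences around the strongest sites are shown first because a short element, the CCAAT box, recurs in them close to the summit. They are the 6 highest-scoring sites whose summit lay in the 5′ flank of an annotated start and outside every annotated gene, followed by Sf3a3, the highest-scoring such site with an ETS element in the stretch. Each stretch reaches up to 60 bases to either side of the summit, is cut before the annotated start, and reads 5′ to 3′ on the strand of the gene (RefSeq, GRCm38.p6). Capitals mark every match, on either strand, to the elements searched. In these stretches they are the CCAAT box, the GC box GGGCGG, the RUNX element TGTGGT and the ETS element CCGGAAGT, or their reverse complements.
Flad1 (chr3:89411883-89411998, minus strand): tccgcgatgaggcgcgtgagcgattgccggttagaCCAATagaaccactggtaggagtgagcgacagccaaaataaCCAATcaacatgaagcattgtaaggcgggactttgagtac
Atp5b (chr10:128083084-128083204, plus strand): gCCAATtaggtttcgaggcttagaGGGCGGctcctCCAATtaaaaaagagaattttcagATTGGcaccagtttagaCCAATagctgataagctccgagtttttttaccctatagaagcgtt
Prmt1 (chr7:44986422-44986525, minus strand): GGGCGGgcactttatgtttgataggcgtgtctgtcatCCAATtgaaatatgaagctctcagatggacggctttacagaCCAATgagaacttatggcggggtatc
G3bp1 (chr11:55469502-55469571, plus strand): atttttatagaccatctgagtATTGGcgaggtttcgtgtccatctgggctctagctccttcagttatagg
Map7d1 (chr4:126256426-126256546, minus strand): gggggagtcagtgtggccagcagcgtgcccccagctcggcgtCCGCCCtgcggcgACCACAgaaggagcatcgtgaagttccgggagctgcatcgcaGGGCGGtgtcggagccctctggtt
Tcp11l2 (chr10:84576729-84576849, plus strand): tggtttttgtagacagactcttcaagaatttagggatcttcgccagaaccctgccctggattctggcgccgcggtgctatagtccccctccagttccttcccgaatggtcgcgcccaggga
Sf3a3 (chr4:124714762-124714859, plus strand): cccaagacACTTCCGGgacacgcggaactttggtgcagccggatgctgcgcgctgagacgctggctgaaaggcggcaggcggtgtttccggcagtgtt

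Flad1, which encodes the FAD synthase, had the highest score of all 535 sites, 136, at position 89411938 of chromosome 3, 57 bases before its start. The nearest p53 summit lay 223948 bp away in replicate 1 and 228187 bp away in replicate 2. Its flank held CCAAT boxes centred 23 and 18 bases to either side of the summit. Atp5b, the gene of the catalytic beta subunit of mitochondrial ATP synthase, scored 54.4 at position 128083144 of chromosome 10, 163 bases before the start. One of its 5 CCAAT boxes was centred 1 base from the summit. Prmt1, which encodes the main protein arginine methyltransferase of the nucleus, scored 47.7 at position 44986465 of chromosome 7, with boxes 21 and 20 bases to either side. G3bp1, a stress granule gene, scored 43.4 at position 55469511 of chromosome 11, with a box 14 bases away. Map7d1, which encodes a microtubule-associated protein (39.2), and Tcp11l2 (35.0) had no CCAAT box in their promoter windows. In each of these genes the p53 summits lay more than 10 kb away in both libraries.

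Among all 535 sites the score ran from 1.68 to 136 with a median of 4.13, and the middle of the distribution, from the lower to the upper quartile, was 3.06 to 5.91. Scores of 10 or more were held by 59 sites (11.0%, 8.50 to 14.0%), of 20 or more by 23 and of 50 or more by 3, which were Flad1, Cic and Atp5b. Scores came in 40 distinct steps, and the commonest, 4.13, was held by 68 sites. The 1007 boundary summits with p53 nearby had a median of 4.70 and a highest score of 181, and 16.3% of them (14.1 to 18.7%) scored 10 or more. The 847 PPAR-alpha summits without p53 that lay away from gene ends had a median of 4.13.

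The share of boundary summits without p53 fell from the weakest to the middle score classes. It was 44.2% (37.7 to 51.0%) under a score of 3, 38.4% (34.6 to 42.2%) from 3 to 5, 28.7% (24.6 to 33.2%) from 5 to 10 and 24.7% (17.9 to 32.5%) from 10 to 20. From 20 to 50 it was 31.7% (20.6 to 44.7%, 20 of 63) and at 50 or more 21.4% (4.66 to 50.8%, 3 of 14), where the intervals are wide. Over all scores it was 34.7% (32.3 to 37.1%). The 1007 summits with p53 owed this to both p53 lists in 482 cases, to replicate 1 alone in 204 and to replicate 2 alone in 321. With replicate 1 as the single p53 list, 856 boundary summits would have counted as free of p53, and with replicate 2 alone 739.

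**Figure D1:**
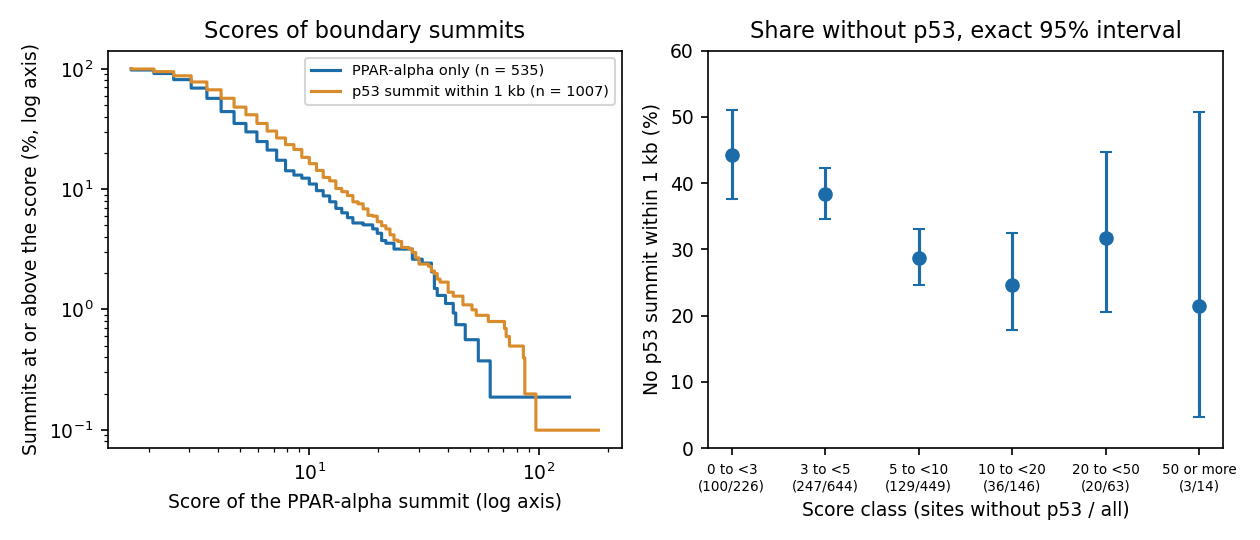
Left, the share of boundary summits (vertical log axis, percent) at or above each PPAR-alpha score (horizontal log axis) for the 535 sites without p53 (blue) and the 1007 with a p53 summit within 1 kb (orange). Right, the share without p53 by score class with exact 95% intervals, which falls from 44.2% under a score of 3 to 24.7% from 10 to 20.

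The nearest p53 summit of either list lay at a median of 46254 bp, and 258 sites (48.2%, 43.9 to 52.6%) had none within 50 kb. Another 52 sites (9.72%) had one between 1 and 2 kb and 26 (4.86%) one between 2 and 5 kb. Just inside the limit lay Tnrc6b, a gene of the microRNA silencing complex (score 12.3, p53 replicate 2 at 1002 bp), and Suox, the sulfite oxidase gene (3.06, replicate 1 at 1003 bp). Just outside lay Cnot2 (2.57, 997 bp), Gimap9 (4.13, 989 bp) and Gm20783 with LOC108167694 (3.06, 975 bp). At the limit of the gene ends, Zfp180 (1000 bp), Dtnbp1 (999 bp) and Sec63 (991 bp) were just inside, with scores from 3.06 to 3.58. Gpbp1 (1001 bp, score 6.55), Jagn1 and Gm46294 (1002 bp each) were just outside.

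Most sites lay at gene starts. The rule treated both ends of a gene alike, yet of the 448 sites assigned to a start or an end, 425 (94.9%, 92.4 to 96.7%) lay within 1 kb of an annotated start. The share was 97.3% (96.0 to 98.3%) for the boundary summits with p53, 827 of 850. A site counted at a start if any neighbour with a known strand started within 1 kb. It counted at an end only if all its neighbours had a known strand, which favours starts in both sets. Summits sat slightly inside the gene, at a median of 126 bases past the start, with quartiles at −99 and 342. With p53 nearby the median was 99 bases. Of the 425, 279 (65.6%, 60.9 to 70.2%) lay at or past the start, against 63.0% (59.6 to 66.3%) with p53. Near 2 genes lay 102 sites (19.1%) and near 3 or more genes 3. Within 1 kb of both starts of a head-to-head pair lay 34 (6.36%, 4.44 to 8.77%), whether or not the summit was between these starts.

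**Figure D2:**
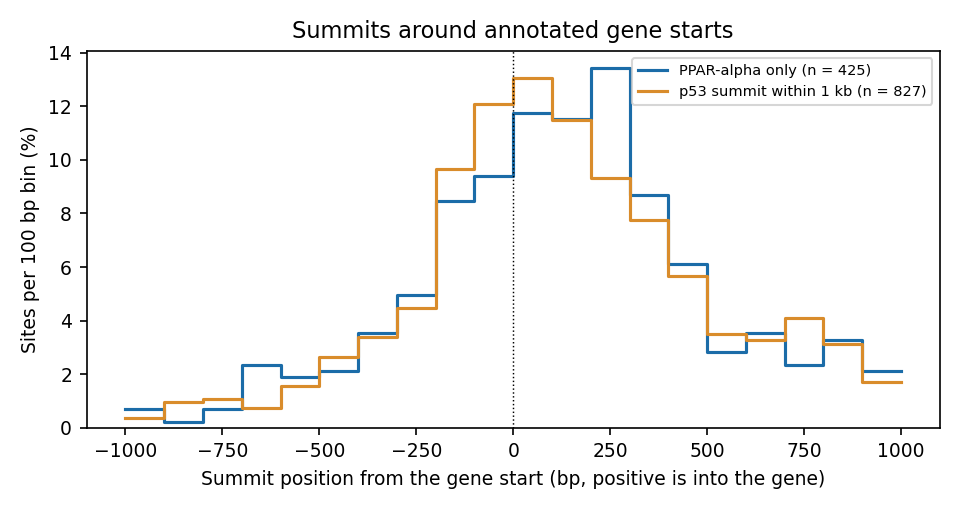
Position of the summit from the annotated gene start (horizontal axis, bp, positive into the gene) for 425 sites without p53 (blue) and 827 with p53 within 1 kb (orange), as the percent of sites in each 100 bp bin. Both sets centre just past the start, with medians of 126 and 99 bases.

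The head-to-head pairs included Rita1, a regulator of Notch signalling, with the RNA helicase gene Ddx54 (20.6), and Tspan4 with the RNA polymerase subunit gene Polr2l (20.6). Tepsin with Ndufaf8, an assembly factor of complex I, followed with 10.7, Ptcd3 with the RNA polymerase I subunit gene Polr1a with 9.27, and both Sdf4 with B3galt6 and Fkbp3 with Fancm with 7.88. Nfya, the gene of a subunit of NF-Y, shared a site with Oard1 (5.91), 446 bases past the start of Oard1. Its nearest p53 summits lay 109274 bp away in replicate 1 and 1108 bp away, just over the limit, in replicate 2. Hadha and Hadhb, the genes of the alpha and beta subunits of the mitochondrial trifunctional protein of fatty acid oxidation, shared a site with a score of 6.55, 36 bases before the nearer start. The 23 sites at the far end of a gene scored lower, with a median of 3.06. The highest was Ccr9, a chemokine receptor gene of thymocytes (14.7, 895 bp from the gene's end), then Grb2 (just under 10) and Tcf25 (7.20), and Rag1 (4.13) was also among them. Sites at starts had a median of 4.13, and 51 of 425 scored 10 or more against 1 of 23 at far ends.

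Which genes held the strongest sites? After Flad1, Cic, which encodes a transcriptional repressor, scored 61.3 at position 25268114 of chromosome 7, 456 bases into the gene. Its p53 distances were 62918 and 10500 bp in replicates 1 and 2. Noct, the circadian gene of nocturnin, scored 42.3, Tom1, an adaptor gene of endosomal sorting, 36.0, and Nlk, which encodes Nemo-like kinase, 35.0. Tsc22d2 (35.0), Ankhd1 (34.0) and Evi5l (34.0), the last for a regulator of Rab GTPases, came next. Riok2, for a kinase of small ribosomal subunit maturation, scored 31.0. Hbp1, a gene for an HMG-box repressor, Elmo2, for an activator of Rac, and the neighbours Rnf5 and Agpat1 scored 28.1 each. Rnf5 encodes a ubiquitin ligase of the endoplasmic reticulum, and Agpat1 an acyltransferase of glycerolipid synthesis. Pabpn1, for the nuclear poly(A)-binding protein, and Rab11b, for a GTPase of recycling endosomes, scored 23.4. Aldh4a1, a mitochondrial enzyme gene of proline breakdown, scored 21.5, Frat2, for a GSK3-binding protein of Wnt signalling, 20.6, and Dcaf7 and Lrch4 19.8 each. Lrch4 had the nearest p53 summits of these 25 sites, at 3080 and 2216 bp.

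The 535 sites lay at 632 of the 20665 protein-coding genes of chromosomes 1 to 19, or 3.06% of them. By the same 1 kb rule, a PPAR-alpha boundary summit with p53 was at 5.65% of genes, any PPAR-alpha summit at 9.29%, and a summit of p53 replicate 1 and replicate 2 at 9.76% and 12.6%. Of the 632 genes, 127 (20.1%, 17.0 to 23.4%) had a p53 summit of either list elsewhere in the gene or within 1 kb of it, and 40 had p53 summits of both lists there. A further PPAR-alpha summit lay in or beside 63 of the genes. The shares of all protein-coding genes by these whole-gene measures were not computed, so these counts cannot be called high or low. In 20 genes a boundary summit with p53 lay within 1 kb of an end as well. There were 11 genes with 2 sites, given here with the higher score, among them Glul, the glutamine synthetase gene (7.20), Shc1, a signalling adaptor gene (6.55), Chd8, a chromatin remodeller gene (4.70), and Septin1 with its neighbour Zfp553 (5.91). Arhgap30 (4.70), Lpp (4.13), Hexim1 and Nxf1 (3.58 each), and Uhrf2 and Sit1 (3.06 each) completed them.

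Of 87 genes listed from background knowledge as targets of the receptor, 5 (5.75%, 1.89 to 12.9%) had a site. All protein-coding genes gave 3.06%, and the interval holds that value. They were Acsl3, a fatty acid activating enzyme gene (score 11.5, position 78657975 of chromosome 1, also within 1 kb of Utp14b), Hadha and Hadhb, Tfrc, the transferrin receptor gene (4.13), and Slc27a4, a fatty acid transporter gene (3.06). By role these were 2 of 11 genes of fatty acid entry and activation and 2 of 20 of mitochondrial oxidation, which share their summit. Tfrc was the 1 of 39 in a mixed group of thioesterases, ketone bodies, storage and fuel handling. Its place there comes from the list and is not a result. None of 13 genes of peroxisomal and 4 of microsomal oxidation had one, which allows shares of up to 24.7% and 60.2%. At Acsl3 the p53 summits lay 169000 and 120700 bp away, and at Hadha with Hadhb 511286 and 77751 bp away. A further 3 of the 87 had a boundary summit with p53 nearby, where all genes gave 5.65%. Any PPAR-alpha summit, dense runs and p53 neighbours included, lay at 8 of the 87, where all genes gave 9.29%. Of 25 genes for PPAR and RXR receptors, coactivators and corepressors none had a site (up to 13.7%), and 2 had a PPAR-alpha summit with p53.

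Genes of lipid and energy metabolism gave the following. In sterol, fatty acid and lipid synthesis 3 of 38 genes had a site (7.89%, 1.66 to 21.4%): Agpat1 (28.1), Dgat2, for the last step of triglyceride synthesis (7.88), and Mvd, of the mevalonate pathway (5.30). In the respiratory chain it was 5 of 73 (6.85%, 2.26 to 15.3%), with Atp5b far ahead of Ndufs3 (4.70), Atp5j2 (3.06), Ndufa10 (2.57) and Ndufv1 (1.68). The same list had a p53 summit at 16 genes in replicate 1 and 26 in replicate 2, where all genes gave 9.76% and 12.6%. Glycolysis had Ldhb alone (1 of 21, score 1.68), and the citrate cycle none of 23 (up to 14.8%). Of those 23, p53 replicate 1 had summits at 4 and replicate 2 at 10. The intervals of these lists for sites without p53 include 3.06%.

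Of 79 genes of thymocyte identity and T cell receptor signalling, 9 had a site (11.4%, 5.34 to 20.5%), an interval above the 3.06% of all genes. By role they included the surface receptor genes Ccr9 (14.7), Cd4 (4.13) and Il2ra (2.57), and the signalling genes Tespa1 (6.55) and Prkcq (4.70). The recombination gene Rag1 (4.13) and the transcription factor genes Foxo1 (3.58) and Ikzf3 (1.68) also had one. Elsewhere, 8 of the 9 genes, all but Il2ra, had a p53 summit of at least 1 list inside them or within 1 kb of them. Among all 632 genes with a site 127 (20.1%) had one, and the share of all protein-coding genes by this measure was not computed. Rag1 and Foxo1 also had a PPAR-alpha summit with p53 within 1 kb at an end. A PPAR-alpha summit with p53 lay at 20 of the 79, where all genes gave 5.65%. Any PPAR-alpha summit, dense runs and p53 neighbours included, lay at 36 of the 79, where all genes gave 9.29%. A p53 summit lay at 27 in replicate 1 and 31 in replicate 2, where all genes gave 9.76% and 12.6%. The other kinds of summit were thus also above their shares over all genes in this list. Of the 15 B cell, 15 myeloid and dendritic and 15 thymic epithelium markers none had a site or any PPAR-alpha summit, which allows shares of up to 21.8% each. Among 15 adipocyte markers Dgat2 alone had a site.

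Splicing factor genes were the other list whose interval lay above 3.06%, with 7 of 68 (10.3%, 4.24 to 20.1%). They included Sf3a3 (5.30), Srsf11 (4.70), Snrpe (3.58), Snrpa1 and Sfpq (2.57 each) and Hnrnpu (2.11). A PPAR-alpha summit with p53 lay at 20 of the 68, where all genes gave 5.65%. Summits of p53 lay at 26 and 37 in replicates 1 and 2, where all genes gave 9.76% and 12.6%. DNA repair had 5 of 68 (7.35%, 2.43 to 16.3%), led by Mdc1, for a mediator of the damage checkpoint (just under 10), and Fancm, of the Fanconi anaemia pathway (7.88), before Rad51d and Tdp2 (5.91 each) and Rnf168 (4.70). Chromatin modifiers had 4 of 81 (4.94%, 1.36 to 12.2%), which were the remodeller gene Ino80, the highest of them, the histone demethylase gene Kdm3b (11.5), Setd5 (6.55) and Chd8. Lists were counted without a test.

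The intervals of the remaining lists included 3.06%. Mitochondrial ribosomal proteins had 4 of 78 (5.13%), led by Mrpl48 (8.57), and cytosolic ones 3 of 79 (3.80%), led by Rplp0 (5.91). Summits of p53 lay at 34 and 46 of the 79 cytosolic genes in replicates 1 and 2, beside 9.76% and 12.6% of all genes. Solute carriers had 12 of 362 (3.31%), led by Slc25a41 (13.8), whose summit also lies near the splicing gene Khsrp. Replication-dependent histones had 2 of 63, H2ac6 and H2bc4, which share a summit (5.91). The cell cycle had 2 of 68 (Orc5, 6.55, and Rfc4, 1.68), zinc finger proteins 11 of 388 (2.84%), led by Zfp13 (just under 10), and the proteasome Psmb10 alone of 39 (4.70). None of 55 p53 targets had a site (up to 6.49%). The rule itself removes genes whose PPAR-alpha summit lies beside p53, and 5 of the 55 had such a summit, beside 5.65% of all genes. Summits of p53 lay at 9 and 15 of the 55, beside 9.76% and 12.6%.

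**Figure D3:**
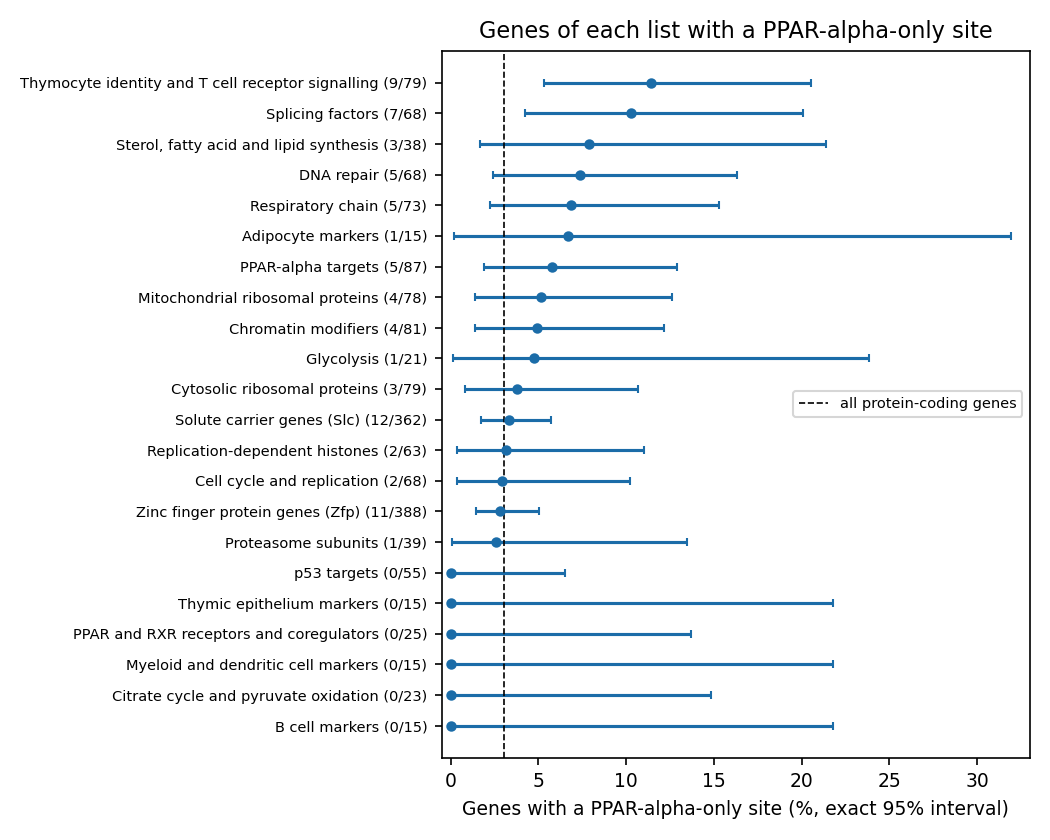
Share of the genes of each list with a PPAR-alpha-only site within 1 kb of either end (points, percent, with exact 95% intervals), with counts in parentheses; the dashed line is the 3.06% of all protein-coding genes. Thymocyte genes (11.4%) and splicing factors (10.3%) are the lists whose intervals lie above the line.

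Do the promoters hold a PPAR response element? The full element, AGGTCA repeated directly with any 1 base between, was searched on both strands in RefSeq windows of 300 bases, from 250 before to 50 after each annotated start. Among the 416 sites with a start in that table within 1 kb, none had the element in the window of the nearest start, which allows a share of up to 0.883%, and 0.0448% of all 20085 windows had it. With 1 mismatch allowed, 2 of the 416 had it (0.481%, 0.0583 to 1.73%), and so had 0.478% of all windows. These were Ubac2 and Fdx2, the latter for a mitochondrial ferredoxin and within 1 kb of Raver1, with scores of 4.13 and 6.55. Their matches are shown because they are the nearest to the element. Capitals mark the bases that match it, and each reads 5′ to 3′ in the direction of the element.
Ubac2 (chr14:121878374-121878386): AGGTCAGAGGTCt
Fdx2 (chr9:21073586-21073598): AGGTCAAAGGTgA
Counted from 1 at the 5′ end of the element, the Ubac2 match differs by A13T and that of Fdx2 by C12G. They lay 64 and 78 bases from the summits. The half-site AGGTCA, which the full element also contains, was in 40 of the 416 windows (9.62%, 6.96 to 12.9%), in 9.39% of those of sites with p53, in 14.7% of all windows and in 9.34% of CpG-rich windows, those with GC content over 50% and a ratio of observed to expected CpG over 0.6. Of the 140 sites whose summit lay in a promoter window, 3 had a half-site within 50 bases of it, which were Ost4 (2 bases away), Tax1bp3 (22) and Tomm70a, named after their values were seen. These 3 lay too near an edge of the window for a comparison at matched positions. Among the 93 sites with at least 50 bases of window on each side the count was 0 (up to 3.89%), where all windows gave 5.18% at the same positions and CpG-rich windows 2.94%. No match says only that these letters are not in these windows.

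The CCAAT box was common at the strong sites. In 140 sites the summit itself lay within a promoter window, and of the 30 that scored 10 or more, 22 (73.3%, 54.1 to 87.7%) had a CCAAT box in the window. Of the 110 with lower scores 37 had one (33.6%, 24.9 to 43.3%), as did 38.1% of all windows and 35.9% of CpG-rich ones. Sites with p53 nearby had it in 28 of 86 windows at scores of 10 or more (32.6%, 22.8 to 43.5%) and in 56 of 224 at lower scores (19.5 to 31.2%). Several boxes were frequent too: 17 of the 30 strong sites without p53 had 2 or more (56.7%, 37.4 to 74.5%), against 14 of 86 strong sites with p53 (16.3%, 9.20 to 25.8%) and 12.8% of all windows. The split at a score of 10 was chosen after the values were seen, and the difference was not tested. Divided at 5 or 20 instead, 55.4% (36 of 65) and 71.4% (10 of 14) of the higher-scoring windows without p53 had a box.

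The boxes also lay near the summits. Among the 24 strong sites with 50 bases of window on each side, 12 had a CCAAT box within 50 bases (50.0%, 29.1 to 70.9%), where all windows gave 17.8% at the same positions. For weaker sites without p53 it was 14 of 69 (20.3%, 11.6 to 31.7%), and for strong sites with p53 10 of 69 (14.5%). Beside those shown, boxes were centred 1 base from the summit at Zbtb22, 2 at Nlk, 4 at Tepsin, 9 at Hbp1, 12 at Dcaf7 and 17 at Pabpn1. At other strong sites the nearest box was farther off: 58 bases at Taf15, 65 at Kmt5c, 94 at Frat2, 106 at Evi5l, 119 at Ino80 and 192 at Elmo2. Strong sites without any box were those of Map7d1, Tcp11l2, Rita1, Tspan4 with Polr2l, Prkci, Selenow, Atrnl1 and Lysmd3. Over all 416 windows the box was in 43.0% (38.2 to 47.9%) without p53 and in 31.6% (28.4 to 35.0%) with p53.

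Other elements were searched on both strands, by exact letters. The ETS element CCGGAAGT was in 55 of the 416 windows (13.2%, 10.1 to 16.9%), in 9.15% (7.25 to 11.3%) of those with p53, in 5.28% of all windows and in 9.14% of CpG-rich ones. Among the sites it was found in 23 of 110 windows that held the summit under a score of 10 (20.9%, 13.7 to 29.7%) and in 1 of 30 at higher scores (3.33%, 0.0844 to 17.2%). Within 50 bases of the summit, with that much window on each side, the ETS element was in 3 of the 69 weaker sites (4.35%, 0.906 to 12.2%). At the same positions all windows gave 2.02% and CpG-rich windows 3.56%. Of the 24 stronger sites 0 had it there. The NRF1 element was in 7 of the 416 (1.68%, 0.679 to 3.44%) and in 45 of the 809 with p53 (5.56%, 4.09 to 7.37%). It was in 270 of all 20085 windows and in 2.58% of CpG-rich ones. Within 50 bases of the summit it was in 1 of the 140 windows that held a summit without p53, that of Alas1, named after its value was seen. With 50 bases of window on each side required it was in 0 of 93 without p53 (up to 3.89%) and in 17 of 231 with p53 (7.36%, 4.35 to 11.5%). The GC box GGGCGG was in 73.8% without and 70.0% with p53, in 47.0% of all windows and in 77.0% of CpG-rich ones. The YY1 element was in 2.16% without and 1.48% with p53, beside 0.896% of all windows and 1.74% of CpG-rich ones. TGACGTCA (CRE) was in 2.40% and 3.83%, beside 2.30% of all windows and 3.79% of CpG-rich ones. CACGTG (E-box) was in 11.5% and 10.5%, beside 7.89% of all windows and 11.6% of CpG-rich ones. TGTGGT (RUNX) was in 11.3% and 11.7%, beside 14.8% of all windows and 9.23% of CpG-rich ones. Within 50 bases of the summit, with that much window on each side, the RUNX element was in 10 of 93 sites without p53 (10.8%, 5.28 to 18.9%). All windows gave 4.98% at the same positions and CpG-rich windows 3.02%. With p53 it was in 13 of 231 (5.63%, 3.03 to 9.43%). The difference was not tested. The p53 half-site, by its consensus name, was in 4.09% (2.40 to 6.46%) and 5.81% (4.30 to 7.65%), beside 7.32% of all windows and 5.55% of CpG-rich ones. Elements can overlap in sequence, and a match is a description, not a site of binding.

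**Figure D4:**
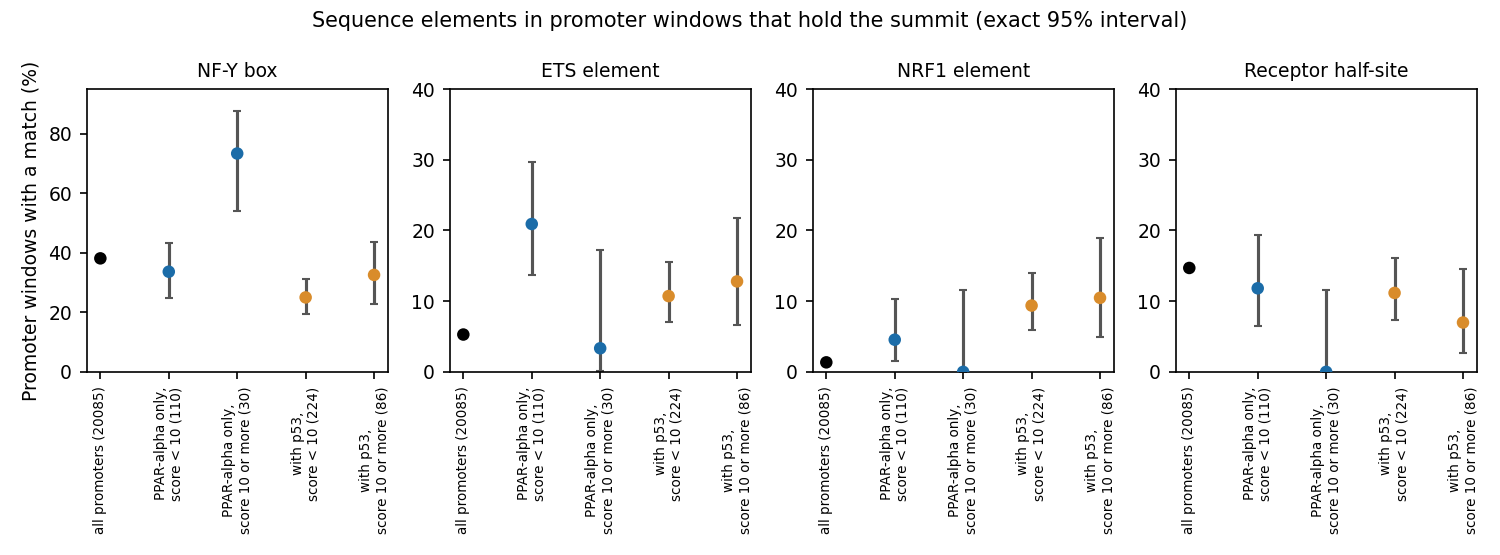
Share of promoter windows with a match (vertical axis, percent, exact 95% intervals) to the CCAAT box bound by NF-Y, the ETS and NRF1 elements and the receptor half-site, for all windows (black) and for windows that hold a summit without p53 (blue) or with p53 (orange), by score, with the number of windows in parentheses. The CCAAT box reaches 73.3% in the 30 windows of strong sites without p53 and at most 38.1% in the other sets.

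Most of these promoters were rich in CpG. By that definition 339 of 416 windows (81.5%, 77.4 to 85.1%) were CpG-rich, beside 85.4% with p53 and 46.2% of all windows. The median GC content was 63.3% without p53, 64.0% with p53 and 57.0% in all windows. An annotated long noncoding RNA gene had an end within 1 kb of 71 sites (13.3%, 10.5 to 16.4%), as of 13.2% of the boundary summits with p53. A microRNA gene did so at 7 sites and a small nucleolar RNA gene at 2, one of them Snord59a, which lies beside the Atp5b summit.

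The sites were spread over all 19 autosomes. Chromosome 19 had the most for its genes, 33 sites or 4.68 per 100 protein-coding genes, and chromosome 7 the fewest, 33 sites or 1.63 per 100. Of the boundary summits of chromosome 19, 46.5% (34.5 to 58.7%) had no p53, and of those of chromosome 15 21.3% (12.7 to 32.3%), with the others between. Chromosome 15 was the autosome whose interval did not include the 34.7% found over all.

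**Figure D5:**
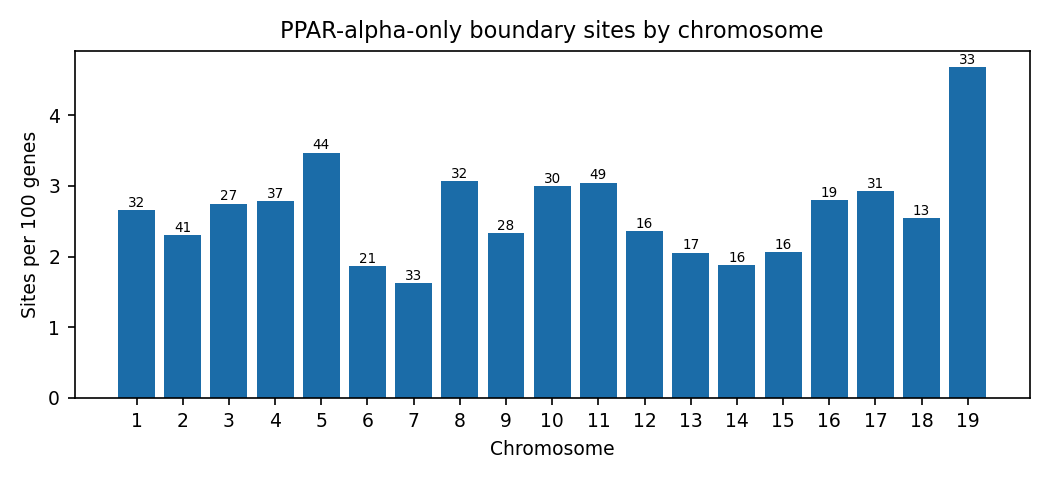
PPAR-alpha-only boundary sites per 100 protein-coding genes (vertical axis) on each autosome (horizontal axis), with the number of sites above each bar. The bars run from 1.63 on chromosome 7 to 4.68 on chromosome 19.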

How the data were processed

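The authors deposited, per the labels, 1 list of summits for each immunoprecipitated library, with a score for each summit that has the layout of a −log10 p- or q-value; no label states its unit. The submitters' processing notes list MACS2 2.1.2, Bowtie2 2.3.4.2 and Picard 2.9.0 with no role for each. They also list GRCh38, a human build, whereas the summits lie on the mouse chromosomes 1 to 19, X and Y. Sources used here give neither the calling threshold nor the use of the input. Depth is unknown. No source used here names a mouse build. GRCm38 was assumed, since summits gather at its gene starts, so the share of sites at starts is no separate evidence of the build. Positions, counted from 1, were compared with the RefSeq genes of GRCm38.p6. Strand and promoter windows came from the RefSeq promoter table, which gave a strand to 16457 of 20665 genes and has no window on chromosome 18.

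Sites, gene lists and elements were chosen with earlier results of these data known. A dense run was any 3 PPAR-alpha summits spanning at most 10 kb. Lists took 22 sets of genes from background knowledge; 19 names on X or Y and 1 without a match were left out. The text names the genes of the 25 highest sites, every PPAR-alpha target, receptor and coregulator with a site, up to 4 or, where few, all genes of other lists, genes with 2 sites, and sites at the limits; a few of these are not reported here. Others were chosen after their values were seen, among them the head-to-head pairs, far-end sites and sites with CCAAT boxes. No test between groups was made, since there is 1 PPAR-alpha library. The site rule was tested on simulated summits. Alternatives changed the windows, dense runs, transfer RNA filter, scores and p53 lists. Python 3.11.15, pandas 2.3.3 and scipy 1.17.1 were used.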

Additional observations from a re-analysis of the deposited data

How the results depend on the processing

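The number of sites depended on how p53 was excluded. A p53 window of 100 bp left 1082 sites, and p53 summits scoring 5 or more left 1054. Leaving out 1 p53 library gave 739 (without replicate 1) to 856 sites (without replicate 2), 47.9 to 55.5% of boundary summits without p53, 4.20 to 4.86% of genes with a site and 101 to 125 list genes with a site, beside 73 with both. PPAR-alpha scores of 5 or more left 188 sites (median score 7.20) and of 10 or more 59 (15.5).

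The share of boundary summits without p53 was 70.2%, 42.0%, 31.3% and 29.6% with p53 windows of 100 bp, 500 bp, 2 kb and 5 kb. It was 28.0% and 26.5% at scores of 5 and 10 or more, and 68.4% with p53 summits scoring 5 or more. The share of genes with a site was 6.07%, 3.66%, 2.76% and 2.62% with those windows and 5.90% with the stronger p53 summits. With gene ends within 500 bp, 2 kb and 5 kb it was 2.36%, 3.69% and 4.77%, and at scores of 5 and 10 or more 1.10% and 0.324%. List genes with a site numbered 156 at 100 bp, 149 with the stronger p53 summits, 113 with gene ends within 5 kb, and 30 and 7 at scores of 5 and 10 or more. Sites at a gene start were 89.9% with gene ends within 5 kb and 98.1% at scores of 10 or more. Wider windows and score limits keep more or fewer summits by construction; why the share varied with the score was not tested.

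The thymocyte, PPAR-alpha target, respiratory chain, lipid synthesis and chromatin lists lay above the share of all genes in 17 of 17 settings. Splicing factors, DNA repair, mitochondrial ribosomal proteins and adipocyte markers did so in 16, and the p53 targets in 1, at their highest with 5.45%. The settings filter the same PPAR-alpha list and share many genes, so these counts are not independent checks. Except for the thymocyte and splicing lists, the intervals of these lists with the main rule included 3.06%. The adipocyte share with the main rule was Dgat2 alone. The number of thymocyte genes with a site moved in 8 other settings and stayed close to its main value in 8. The CCAAT box share of sites scoring 10 or more was 56.7 to 73.3% over the windows, filters and p53 lists tried after seeing the data, with 57.4% without p53 replicate 2 (35 of 61). No paired analysis was possible because only 1 PPAR-alpha library exists among the samples and no test was made. Without read numbers, a summit missing from a p53 list cannot be told apart from p53 signal under its calling threshold.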
